A study of Rattus norvegicus with 10 samples.

Results

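The genes examined here encode insulin-like growth factors, their receptors and their binding proteins, together with the insulin receptor and its adaptor. They are *Igf1*, *Igf2*, *Igf1r*, *Insr*, *Irs2*, *Igfbp2*, *Igfbp3* and *Igfbp5*, and every probe set (a group of short probes that measures a transcript) whose single gene symbol in the platform annotation was one of these was included. This gave 20 probe sets of 8 genes, out of 31099 probe sets and 14218 named genes on the array. The tissue was brain from male Wistar rats (outbred), dissected around the hypothalamus according to the study's methods. Rats restricted by 5, 10, 20 or 30% of the food intake of freely fed rats (calorie restriction, CR) from 6 weeks of age were compared with control rats given the full intake, all on the AIN-93G powdered diet, all for 1 week and all killed after a 16 h fast. Each array carried the pooled RNA of 5 rats from 1 group, so there were 4 CR arrays and 1 control array, and no level of CR had a replicate. The question was how mild to moderate CR alters gene expression, and for these genes it was whether the growth factor and insulin signalling components of the hypothalamus area differ between restricted and control rats.

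Insulin-like growth factor 1 (IGF-1) and IGF-2 are small hormones related to insulin. Both act through the IGF-1 receptor, a tyrosine kinase that passes its signal to adaptor proteins such as IRS-2 and on to phosphoinositide 3-kinase, and the insulin receptor uses the same adaptors. The binding proteins hold the growth factors outside cells and can either store them or keep them from the receptor. IGF-1 in the blood comes mainly from the liver, while the brain also makes its own. In the adult brain, *Igf2* is known mainly from the choroid plexus and meninges, and *Igfbp2* from the same tissues and from glia.

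All values are MAS5 signals, the background-corrected brightness of a probe set, on the scale to which the authors set each array. The signals of 1 probe set can be compared between arrays, but not with those of another probe set. The 1 week control array stood apart, since 11.71 to 14.35% of signals on the CR arrays were under 10, against 24.02% of its own, and its log2 signals correlated at 0.852 to 0.874 with those of the CR arrays, whose own pairs gave 0.912 to 0.922 (correlations over probe sets, not over independent samples). The poly-A spike-ins, added to the RNA before labelling, gave lower CR than control signals in 12 of 12 probe sets, with a median log2 difference of 1.23 for control minus CR. The log2 ratio of 3' to 5' signal, a measure of RNA quality, was higher on CR arrays, where the spike-ins were lower. For GAPDH it was 0.40 to 0.79 on CR arrays and 0.19 on the control array. For beta-actin it was 2.19 to 2.80 on CR arrays and 1.90 on the control array. Every comparison with control below uses this array, and the part of these array differences in the results was not tested. Of 14 hypothalamic marker genes, 10 passed the filter on low signals described next, and *Agrp* and *Kiss1* had no probe set with a single symbol. Among the 10, *Pmch* had 8130.4 to 8942.1 on CR arrays and 7157.0 on the control array. In the test described next, *Npy* was called higher (1758.6 to 2034.6 on CR arrays, 806.8 on control). *Trh* was called lower (140.1 to 202.1 on CR arrays, 355.1 on control) and 8 were not called, against 22.9% of named genes called. *Pomc* was under the filter, at 4.9 to 14.8 on CR arrays and 2.6 on the control array.

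At 1 week *Igf1*, on 1 of its 2 tested probe sets, was higher on CR arrays than on the control array. *Igfbp2* was lower, and no other member passed the test. Of the 20 probe sets, 9 from 6 genes had a mean log2 signal above the median of all probe sets (a signal of 53.3) and were tested with limma, and 11 were too dim. Of the 9, 1 was called higher and 1 lower at an adjusted p under 0.05 (Benjamini-Hochberg over 15521 probe sets). This is 22.2% of the members tested, against a background of 25.5% of all tested probe sets, 14.5% called higher and 11.0% called lower, so calls were no more frequent among the members. The median log2 difference was -0.08 over the 9 probe sets and 0.03 over all tested. The 4 CR levels entered the fit together, so its spread is that between CR pools, and it takes the single control pool to vary to the same extent. The spread of each probe set was moderated toward that of all tested probe sets of like intensity, so intervals can be wider than its own SD implies. For *Igf1r* 1368123_at the SD over CR arrays was 0.06 and the standard error of the fit 0.22.

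**Figure D1:**
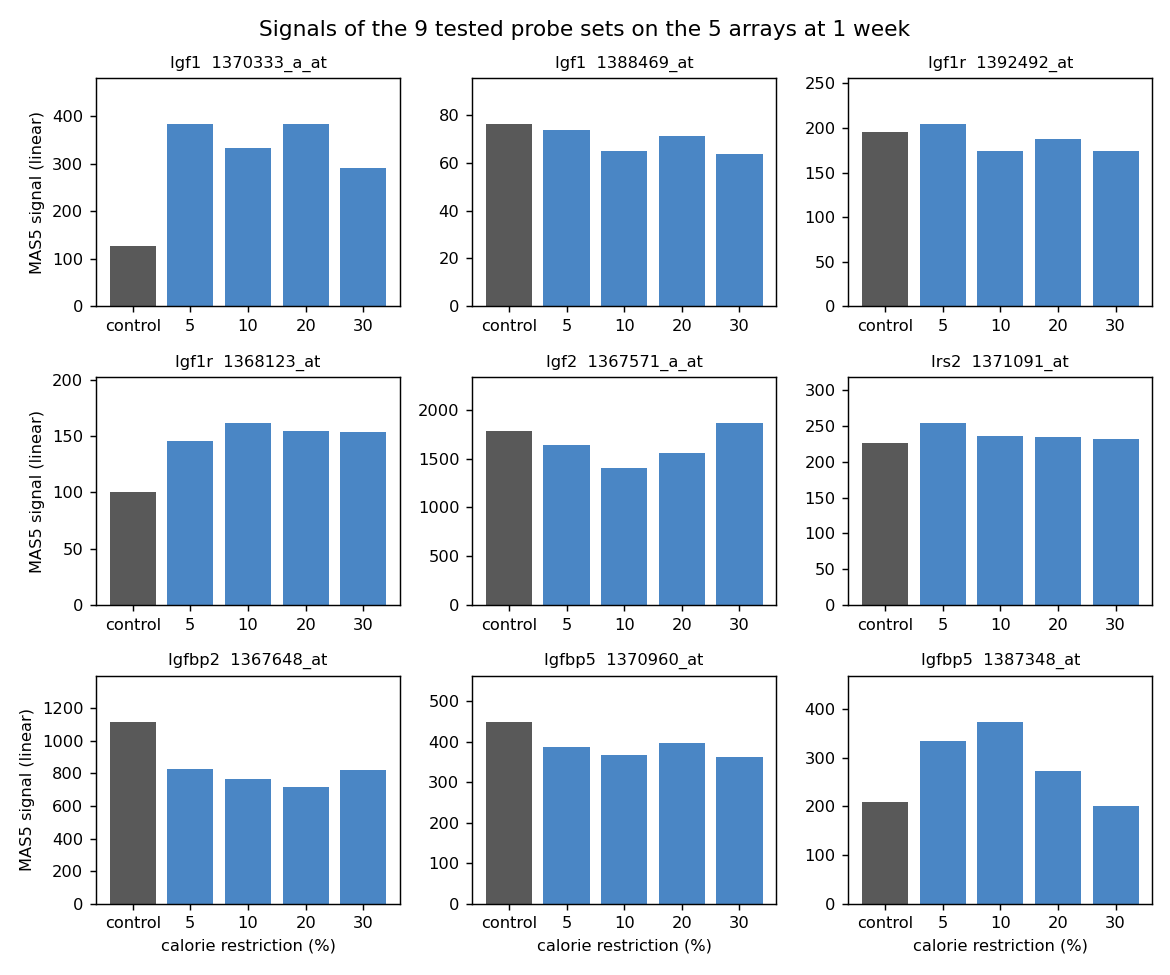
MAS5 signal (linear scale, each panel starting at 0) of the 9 tested probe sets on the control array (dark) and the arrays of 5, 10, 20 and 30% CR (blue) at 1 week. Each bar is 1 array of RNA pooled from 5 rats, so there are no error bars. *Igf1* 1370333_a_at lay at 290.9 to 383.3 on CR arrays and 126.0 on the control array.

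The promoters of the called members, *Igf1* and *Igfbp2*, are shown as a description of sequence. A link between sequence and the direction of either change was not tested. Each is the 250 bases before 1 annotated gene start (RefSeq, GRCr8), on the plus strand at chr7:24172282-24172531 for *Igf1* and chr9:81864561-81864810 for *Igfbp2*, with motif matches in capitals.
Igf1: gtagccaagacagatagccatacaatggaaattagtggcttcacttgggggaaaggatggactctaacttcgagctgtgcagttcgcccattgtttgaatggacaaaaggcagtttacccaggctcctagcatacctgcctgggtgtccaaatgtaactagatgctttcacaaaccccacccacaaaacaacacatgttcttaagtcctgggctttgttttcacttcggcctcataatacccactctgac
Igfbp2: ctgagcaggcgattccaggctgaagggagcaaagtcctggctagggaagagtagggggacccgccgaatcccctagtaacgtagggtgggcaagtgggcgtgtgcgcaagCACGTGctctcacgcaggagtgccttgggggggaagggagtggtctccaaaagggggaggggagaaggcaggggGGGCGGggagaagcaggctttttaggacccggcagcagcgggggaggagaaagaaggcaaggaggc
The windows differed in base composition, with 64.0% G and C for *Igfbp2* and 46.8% for *Igf1*, against a median of 51.2% over 33469 promoters. The motifs looked for, on both strands, were the FOXO motif GTAAACA, the E-box CACGTG, the GC box GGGCGG and the TATA motif TATAAA. The *Igfbp2* window held an E-box and a GC box, and the *Igf1* window held none of the motifs. Of 8 promoter windows of 7 members (*Irs2* was not matched), 1 held the FOXO motif (*Insr*), 2 the E-box (*Igf1r* and *Igfbp2*), 3 the GC box (those and *Igf2*) and 0 the TATA motif, where the shares over all promoters were 3.21, 5.59, 30.5 and 12.9% in the same order. A match is a description of letters, not of a bound site.

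*Igf1*, the gene of IGF-1, was measured by 3 probe sets with different values. The brightest, 1370333_a_at, whose suffix marks probes shared by transcripts of the same gene, had signals of 382.6, 333.2, 383.3 and 290.9 on the 5, 10, 20 and 30% CR arrays, against 126.0 on the control array. All 4 CR arrays lay above control, and the lowest of them was that of 30% CR. The log2 difference was 1.45 ± 0.19 (SD over CR arrays, n = 4), a 2.74-fold change, with a 95% interval of 1.01 to 1.90 and an adjusted p of 0.00103. Of all tested probe sets, 5.21% had a larger increase. The call held in each of 13 alternative settings, with log2 differences of 1.02 to 1.54.

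The second *Igf1* probe set, 1388469_at, showed no such increase. Its signals were 73.7, 65.1, 71.2 and 63.7 on the 5, 10, 20 and 30% CR arrays, against 76.3 on the control array. All CR values were slightly below control, and the log2 difference was -0.16 ± 0.10 (SD, n = 4), with an interval of -0.92 to 0.60 and an adjusted p of 0.766 by limma. The third, 1382599_at, was too dim for the test, at 17.1 to 33.5 on CR arrays and 16.6 on the control array. Within each array, the log2 ratio of 1370333_a_at to 1388469_at was 2.19 to 2.43 on CR arrays and 0.72 on the control array, a difference of 1.61 that no scaling of an array by a single factor can alter. With 4 arrays against 1, an exact permutation test (two-sided) of this ratio gave p = 0.2, the smallest it can give. The files do not say which *Igf1* transcripts each probe set detects, so the increase rests on 1 of the 2 probe sets tested. The 3' to 5' ratios given above were also higher on the CR arrays, and their part in this disagreement was not tested.

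Among markers of cells that the dissection could hold, those of the pituitary had mostly higher signals on CR arrays. Of 10 on the array (11 listed), all CR arrays were above control in 7 and overlapped it in 3. The latter include the growth hormone gene *Gh1*, at 8.0 to 50.6 on CR arrays and 10.7 on the control array. The share of 37.1% with all CR arrays above control covers tested probe sets only. It is no background for these 10, since most were under the filter, and no such share was taken over dim probe sets. The count of 7 is therefore a description only. Among the 7, *Prl*, *Pitx1* and *Pou1f1* had control signals of 0.6, 2.6 and 1.9. Signals under 10 were also more frequent on the control array (24.02%) than on CR arrays (11.71 to 14.35%). The 3 that passed the filter were called higher (*Tshb*, *Lhb* and *Cga*), against a background of 22.9% of named genes called, but *Tshb* and *Lhb* had control signals of 43.3 and 33.6, under the filter of 53.3, and so passed it only through the CR arrays. *Cga*, the shared subunit of pituitary hormones, made up most of the summed signal, with 1713.9 to 2332.9 on CR arrays and 877.4 on the control array, and the other 9 summed to 420.0 to 631.0 on CR arrays and 168.3 on the control array. Such sums add probe sets of different brightness, so a bright one can set them. Their part in the *Igf1* value was not tested. Microglia can also make IGF-1. Of 7 tested microglial genes 1 was higher (*Tyrobp*), none was lower, and the 9 signals summed to 2245.9 to 2473.4 on CR arrays and 2344.6 on the control array (without the brightest, *C1qa*, 1778.0 to 1847.3 on CR arrays and 1632.4 on the control array). In pooled tissue RNA, more cells of a type and more RNA per cell cannot be told apart.

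*Igf2*, the second growth factor gene, did not pass the test. Its only bright probe set, 1367571_a_at, had signals of 1634.7, 1404.2, 1553.4 and 1866.2 on the 5, 10, 20 and 30% CR arrays, against 1780.5 on the control array. The groups overlapped, with 30% CR above control and the other levels below it. The log2 difference was -0.15 ± 0.17 (SD, n = 4), with an interval of -0.48 to 0.18 (limma, adjusted p = 0.496). The remaining *Igf2* probe sets, 1371206_a_at, 1388252_at and 1398322_at, lay at 3.8 to 22.6 on CR arrays and 0.6 to 14.6 on the control array, and only the second overlapped between groups. Signals under 10 were more frequent on the control array, and no share of such separation was taken over dim probe sets.

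*Igf1r*, the receptor for both growth factors, also gave 2 answers. On 1368123_at the signals were 145.5, 161.8, 154.9 and 154.0 on the 5, 10, 20 and 30% CR arrays, against 99.9 on the control array. The CR arrays lay close together and all above control, and the log2 difference was 0.62 ± 0.06 (SD, n = 4; interval 0.13 to 1.12), but the adjusted p by limma was 0.0658. It passed in 1 of 12 alternatives, when the moderation of the variance took no intensity trend (adjusted p = 0.0454, range over alternatives 0.0454 to 0.547). On the brighter 1392492_at the signals were 204.5, 174.1, 187.5 and 174.6 on the 5, 10, 20 and 30% CR arrays, against 195.4 on the control array, and the groups overlapped. The log2 difference there was -0.08 ± 0.11 (SD, n = 4; interval -0.53 to 0.37; adjusted p = 0.804). Within an array, the log2 ratio of 1368123_at to 1392492_at was -0.49 to -0.11 on CR arrays and -0.97 on the control array.

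*Insr*, the insulin receptor, could not be assessed. Its probe set 1369051_at had signals of 28.5, 19.4, 35.8 and 17.7 on the 5, 10, 20 and 30% CR arrays, against 6.7 on the control array, and 1392043_at had 24.1, 32.3, 5.5 and 22.3, against 27.8. The CR arrays lay above control on the first and on both sides of it on the second, and both probe sets were dimmer than the filter. *Irs2*, the adaptor downstream of both receptors, had a single probe set with 254.5, 236.7, 234.4 and 232.2 on the 5, 10, 20 and 30% CR arrays, against 226.0 on the control array. All CR values were above control, by little. The log2 difference was 0.08 ± 0.06 (SD, n = 4; interval -0.31 to 0.48; limma, adjusted p = 0.768), and its sign turned with median scaling (-0.35).

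*Igfbp2*, a binding protein for both growth factors, was the member that fell. Its single probe set had signals of 826.2, 765.2, 716.5 and 820.7 on the 5, 10, 20 and 30% CR arrays, against 1118.5 on the control array. All CR arrays lay below control, and the CR levels differed little among themselves. The log2 difference was -0.52 ± 0.10 (SD, n = 4), with an interval of -0.81 to -0.23 and an adjusted p of 0.0174 by limma. A larger decrease was seen in 16.8% of tested probe sets. The call held in 12 of 13 alternatives and was lost when no intensity trend was used (adjusted p = 0.0828, range over alternatives 0.00086 to 0.0828).

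The tissues that are rich in *Igf2* and *Igfbp2* gave mixed values. The background for the counts below was 22.9% of named genes called, 11.6% higher and 11.3% lower. Of 4 tested choroid plexus genes, *Ttr* and *Prlr* were higher on CR arrays and *Enpp2* was lower, and the 8 on the array summed to 1486.8 to 1637.6 on CR arrays and 1824.4 on the control array. That order was set by *Enpp2* alone, and the other 7 summed to 681.9 to 838.9 on CR arrays and 388.0 on the control array. The defining choroid plexus gene *Ttr*, a thyroid hormone carrier, had 110.5 to 202.6 on CR arrays and 35.5 on the control array. The control signal of *Ttr* was under the filter, so the gene passed it only through the CR arrays. Of 10 tested meningeal and fibroblast genes, *Col1a1* and *Mgp* were higher and *Dcn* was lower, and the 11 summed to 3994.6 to 4375.4 on CR arrays and 4035.7 on the control array (without *Mgp*, 2289.0 to 2707.6 on CR arrays and 3011.2 on the control array). Of 6 tested astrocyte genes, *Gja1* was higher and *Aldh1l1* lower, and the 7 summed to 22155.0 to 23062.1 on CR arrays and 22699.4 on the control array (without *Gja1*, 14881.9 to 15938.2 on CR arrays and 17197.4 on the control array). The part of these cells in the *Igfbp2* value was not tested.

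*Igfbp5*, a binding protein that attaches to the extracellular matrix, gave probe sets of opposite sign. The brightest, 1370960_at, had 386.6, 367.8, 398.0 and 361.9 on the 5, 10, 20 and 30% CR arrays, against 450.4 on the control array. All CR arrays lay below control, and the log2 difference was -0.25 ± 0.06 (SD, n = 4; interval -0.58 to 0.08; limma, adjusted p = 0.245). On 1387348_at the values were 334.4, 373.8, 272.8 and 199.6 on the 5, 10, 20 and 30% CR arrays, against 207.8 on the control array. Here 3 CR arrays lay above control and that of 30% CR just below it, and the log2 difference was 0.47 ± 0.40 (SD, n = 4; interval -0.19 to 1.13; adjusted p = 0.277). The SD of this probe set over CR arrays compares with a median of 0.20 over all tested probe sets.

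The signals of the 3 other *Igfbp5* probe sets and of both *Igfbp3* probe sets were under the filter. *Igfbp3* encodes the main carrier of IGF-1 in blood. Its probe set 1386881_at had 39.1, 30.9, 29.5 and 56.2 on the 5, 10, 20 and 30% CR arrays, against 33.5 on the control array, and 1367652_at had 20.8, 20.8, 61.0 and 15.6, against 53.7. The groups overlapped on both. Across the 11 dim probe sets, signals ran from 3.4 to 61.0 on CR arrays and from 0.6 to 53.7 on the control array, and 5 of them had a control signal under 10. Without the filter, 2 of them were called higher, *Igfbp5* 1387347_at (17.4 to 31.0 on CR arrays and 2.1 on the control array) and *Igf2* 1398322_at (5.2 to 21.4 on CR arrays and 0.6 on the control array). In that fit 18.2% of all probe sets under the filter were called higher, and 21.5% of all probe sets were called.

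**Figure D2:**
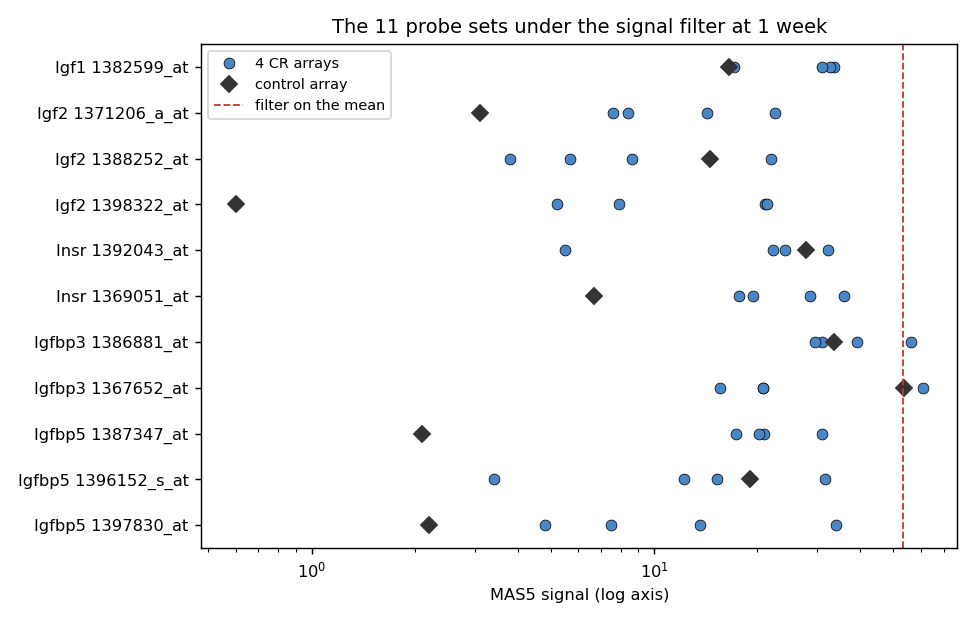
MAS5 signal (log axis) of the 11 probe sets under the filter at 1 week, with circles for the 4 CR arrays, diamonds for the control array and a dashed line at the filter on the mean, 53.3. The control signal was under 10 in 5 of the 11, where a difference on the log scale rests on values near background.

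Whether CR arrays lay wholly on 1 side of control was counted for the 9 tested probe sets. They lay above it in 3, below it in 3 and on both sides in 3, so 6 of 9 were on 1 side, against 70.2% of all tested probe sets. Over all of these, 37.1% had all CR arrays above and 33.1% all below. At each level the ratio to the same control array was also read against 1.5-fold, without a test. *Igf1* 1370333_a_at passed at every level, with log2 ratios of 1.60, 1.40, 1.61 and 1.21 at 5, 10, 20 and 30% CR. *Igf1r* 1368123_at passed at 10, 20 and 30%, *Igfbp5* 1387348_at at 5 and 10%, and *Igfbp2* (lower) at 20% alone. The background at 1.5-fold was 35.4, 38.5, 39.7 and 33.2% of tested probe sets at 5, 10, 20 and 30% CR.

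**Figure D3:**
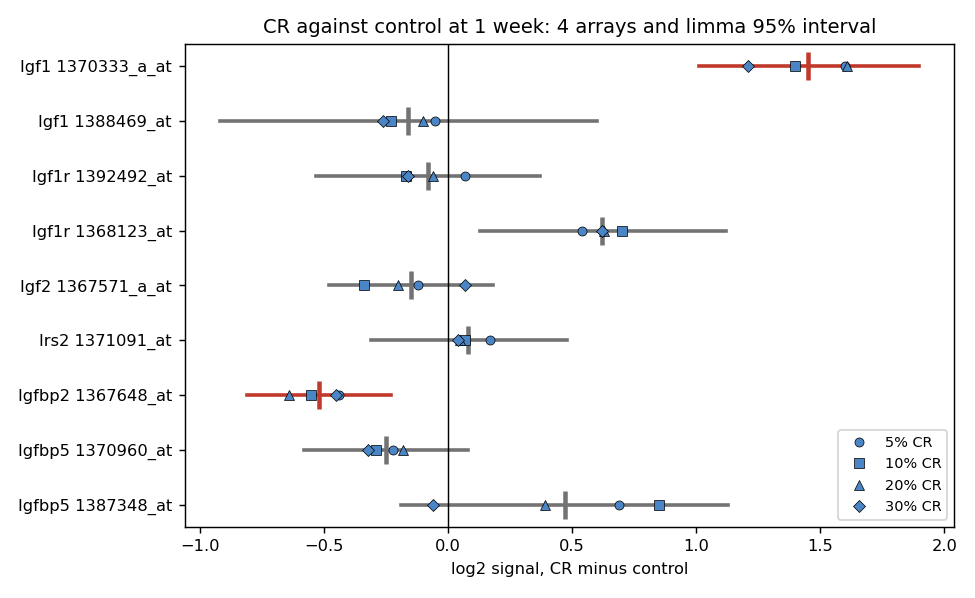
Log2 signal of CR minus control for the 9 tested probe sets at 1 week. Symbols are the 4 CR arrays, the vertical tick is their mean and the line is the 95% interval by limma, in red where the adjusted p was under 0.05, as for *Igf1* 1370333_a_at (1.45) and *Igfbp2* (-0.52).

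No member passed the tests among the CR levels, which need no control array. With 2 residual degrees of freedom some intervals were wide, such as -0.79 to 0.71 for *Igf1* 1388469_at in the difference given next. Between the 20 and 30% arrays and the 5 and 10% arrays, *Igf1* 1370333_a_at differed by -0.10 on the log2 scale (interval -0.50 to 0.30; limma, adjusted p = 0.968) and *Igfbp2* by -0.05 (interval -0.33 to 0.22; adjusted p = 0.981). *Igfbp5* 1387348_at had the largest difference of the 9, -0.60 (interval -1.03 to -0.17; unadjusted p = 0.0122, adjusted p = 0.937). Its slope over CR level was -0.33 ± 0.09 (SE) per 10 percentage points (unadjusted p = 0.00475, adjusted p = 0.999). The difference was -0.37 without the 30% array and -0.82 without the 20% array, and the slope -0.11 with the control as 0%. The slopes of the other 8 were at most 0.11 in size, with unadjusted p of 0.16 or more. Of all probe sets none was called by limma in either comparison (0.0%), with 783 (5.04%) and 743 (4.79%) at an unadjusted p under 0.05, for the difference and the slope in that order. Of the 9 members, 1 had such a p in each.

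Other genes of the IGF and insulin pathway were described from a list of 48, of which 43 were on the array. Of the 28 that passed the filter, 8 were higher, 1 was lower and 19 did not pass, or 32.1% called against 22.9% of the 9479 named genes tested by their brightest probe set (11.6% higher and 11.3% lower). With median scaling the balance turned, to 3 higher and 8 lower of the same 28. In that setting the balance of all 15521 tested probe sets also turned, to 1023 higher and 5024 lower. In the main fit the median log2 difference was 0.30 in the list and -0.02 over the 9479 named genes. The filter on the mean lets a dim gene through more easily when it is higher in CR. Of the 8 higher genes, 4 had a control signal under 53.3 (*Igf2bp2*, *Inpp5d*, *Ins1* and *Stc1*) and passed it only through the CR arrays. The count of genes that passed is therefore no support for a rise of the pathway.

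**Figure D4:**
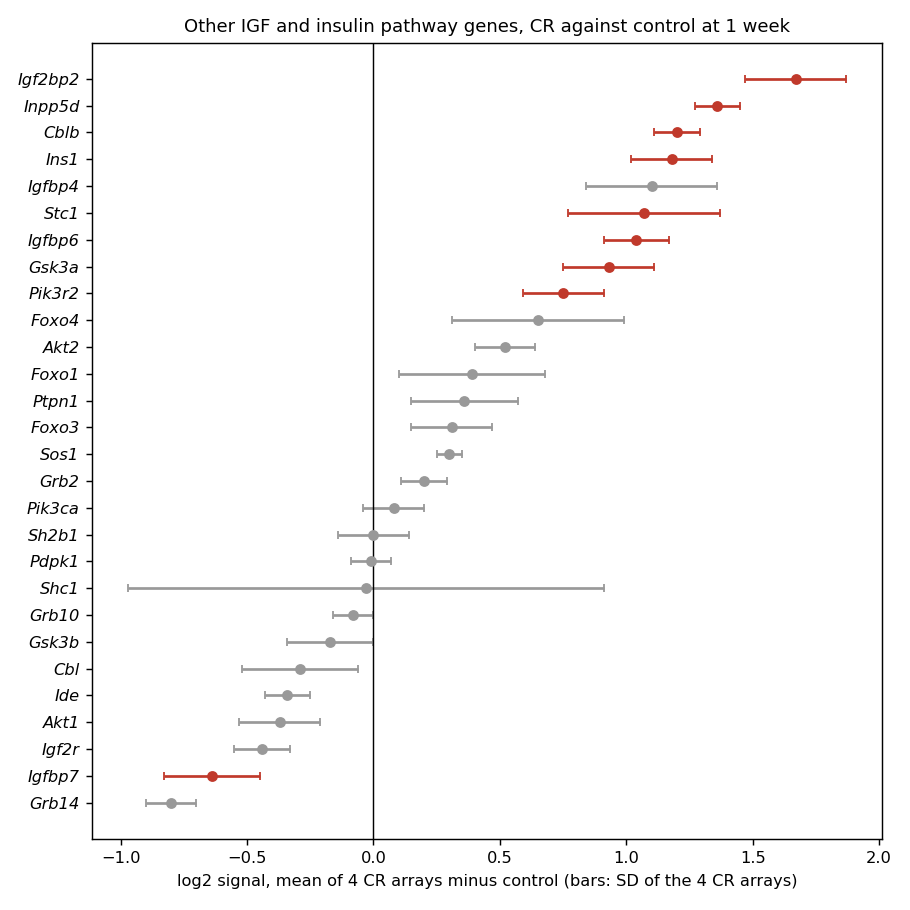
Mean log2 signal at 4 CR levels minus that of control (1 week) for 28 other IGF and insulin pathway genes, with the SD of the 4 CR arrays as bars. Red marks an adjusted p under 0.05 by limma, 8 genes above 0 and 1 (*Igfbp7*) below.

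Outside the cell, *Igfbp6*, a binding protein that prefers IGF-2, had 105.1 to 127.7 on CR arrays and 54.6 on the control array, a log2 difference of 1.04 (adjusted p = 0.0236). *Igfbp7*, a low-affinity relative found in vessels, was lower, with 836.6 to 1147.0 on CR arrays and 1529.4 on the control array (-0.64, adjusted p = 0.018). *Stc1*, stanniocalcin 1, had 80.3 to 133.4 on CR arrays and 49.2, under the filter, on the control array (1.07, adjusted p = 0.0447). The CR values of each lay wholly on 1 side of control. Of vessel cells, 2 of 10 tested endothelial genes were higher (*Slc2a1* and *Tie1*) and 2 lower (*Cldn5* and *Slco1c1*). Of the 10, 3 had a control signal under the filter and passed it only through the CR arrays, *Tie1* (49.4) among them. Of 5 tested pericyte and smooth muscle genes 0 were higher and 1 was lower, where the background was 22.9% of named genes called. The endothelial signals summed to 1942.4 to 2139.4 on CR arrays and 2265.0 on the control array (without *Slc2a1*, 1237.7 to 1358.6 on CR arrays and 1777.7 on the control array). Those of pericytes and smooth muscle summed to 863.0 to 1041.2 on CR arrays and 1197.9 on the control array (without *Tagln*, 626.8 to 745.2 on CR arrays and 704.2 on the control array). The part of these vessel cells in the *Igfbp7* value was not tested. *Igfbp4* (1.10, adjusted p = 0.056) and the IGF-2 clearing receptor *Igf2r* (-0.44, adjusted p = 0.131) did not pass.

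The insulin genes gave low signals. *Ins1* had 63.2 to 79.3 on CR arrays and 31.5 on the control array, and was called (1.18, adjusted p = 0.0461). It passed the filter only through the CR arrays. *Ins2*, the other rat insulin gene, was under the filter at 18.7 to 90.8 on CR arrays and 1.5 on the control array. *Irs1*, the sister adaptor of *Irs2*, was under it at 6.2 to 31.1 on CR arrays and 9.3 on the control array. Whether these signals were above background was not tested.

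Inside the cell, *Igf2bp2*, which binds *Igf2* mRNA, had the largest difference among the called genes, 97.5 to 128.6 on CR arrays and 34.7 on the control array (1.67, adjusted p = 0.00457). *Inpp5d*, a phosphatase that removes the lipid product of phosphoinositide 3-kinase, had 98.7 to 113.3 on CR arrays and 40.5 on the control array (1.36, adjusted p = 0.00912). *Igf2bp2* and *Inpp5d* had control signals under the filter and passed it only through the CR arrays. *Cblb*, a ubiquitin ligase, was at 195.0 to 222.0 on CR arrays and 90.7 on the control array (1.20, adjusted p = 0.00288). *Gsk3a*, a kinase held back by insulin signalling (0.93), and *Pik3r2*, a regulatory subunit of phosphoinositide 3-kinase (0.75), were also higher. The kinases *Akt1* (-0.37) and *Akt2* (0.52) and the transcription factors *Foxo1* (0.39) and *Foxo3* (0.31) did not pass.

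These pathway calls depended on the processing. With median, quantile and cyclic loess scaling 4, 5 and 6 of the 9 calls were kept, and only *Igf2bp2*, *Cblb* and *Igfbp7* were kept in all 3. Of these, *Igf2bp2* and *Cblb* fell under a filter at the 75th percentile and *Igfbp7* was lost without an intensity trend. Of 9 growth hormone axis genes 3 were tested and 2 called, against a background of 22.9% of named genes called. A list of 3 is too small to read against that share. *Sst*, somatostatin, which restrains growth hormone release, had 2068.0 to 2347.5 on CR arrays and 1511.3 on the control array (0.55, adjusted p = 0.00559), and the signal transducer *Stat5a* was at 76.5 to 154.1 on CR arrays and 52.1 on the control array (1.15, adjusted p = 0.0496), again with a control signal under the filter. *Ghrh*, the releasing hormone, did not pass (0.50, adjusted p = 0.294).

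The genes whose 4 ratios to control were most like those of the called members were found among the 9479 tested genes. The measure was the root mean square of the differences between log2 ratios over the 4 CR levels, which all share the control array. For *Igf1* they were *Pyroxd2* (0.09), *Emp3* (0.10) and *Chl1* (0.11), and for *Igfbp2* they were *Bbs2* (0.03), *Armcx4* (0.04) and *Mrpl50* (0.04). This is a description of 5 arrays and says nothing about function.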

How the data were processed

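RNA pooled from 5 rats per group was measured on 10 Affymetrix Rat Genome 230 2.0 arrays. In the deposited table each array has 1 column of intensity values, the linear MAS5 signals computed by the authors, and the trimmed mean was 158.8 on every 1 week array. Detection calls were not used here. The 1 month columns were not used, since their rows do not follow the probe set identifiers (correlation with 1 week columns 0.036 to 0.052 in 25 pairs). Signals were taken as log2, with 4 values of 0 set to 0.1. Of the 31099 probe sets, 20832 had 1 gene symbol (platform annotation), 436 several and 9831 none, and 20764 were found in RefSeq (GRCr8) with 0 symbols updated.

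The 4 CR arrays were fitted against the 1 control array (3 residual degrees of freedom) with limma 3.58.1 in R 4.3.3 (lmFit, eBayes with an intensity trend, Benjamini-Hochberg, threshold 0.05) over the 15521 brighter ones (mean log2 above the 50th percentile), leaving out 57 control probe sets. The 20 and 30% against the 5 and 10% arrays, and the slope over CR level, used the 4 CR arrays (2 residual degrees of freedom). No p-value here covers more than pool-to-pool spread. A gene in a list was represented by its brightest probe set, and named genes were the members, every called list gene, the insulin genes, *Irs1* and *Igf2r*; other list genes were chosen after their values were seen. Alternatives were median, quantile and (added after seeing the data) cyclic loess scaling, no filter, a filter at the 75th percentile or weighting both arms equally, a pseudocount of 13.7, robust eBayes or eBayes without trend, dropping CR arrays in turn, a 2-fold limit in place of 1.5-fold, and a slope that takes control as 0%. Members and lists were chosen with earlier results of these data known. Python 3.11.15 was used for the rest.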

Additional observations from a re-analysis of the deposited data

How the results depend on the processing

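The number of probe sets called between CR and control, 3958 in the main fit, was 6047 with median scaling and 6685 without a filter, and stayed within 1.5 times in all other settings. Median scaling shifted the median of all tested probe sets by -0.44 on the log2 scale and left 16.9% of calls higher, against 56.7% in the main fit (52.1 to 57.3% with quantile or cyclic loess scaling or a pseudocount). Under it *Igf2* 1367571_a_at (-0.58, adjusted p = 0.0163 by limma) and *Igfbp5* 1370960_at (-0.69, adjusted p = 0.00726) passed, and *Irs2* turned to -0.35. Relative to the median of all probe sets they were at -0.18, -0.28 and 0.05. *Igf1* 1370333_a_at was at 1.02 and *Igfbp2* at -0.95, both called. With a 2-fold limit 2444, 2709, 2888 and 2205 probe sets passed at 5, 10, 20 and 30% CR. Between the 20 and 30% and the 5 and 10% arrays, 1 probe set was called with quantile normalization and 0 to 11 when a CR array was left out. For the slope 3 to 30 were called when a CR array was left out. When a CR array was left out, the difference between these arrays ran from -0.30 to 0.10 for *Igf1* 1370333_a_at and from -0.15 to 0.05 for *Igfbp2*, and the slopes from -0.15 to 0.03 and from -0.13 to 0.05. For *Igfbp5* 1387348_at the difference ran from -0.82 to -0.37 and the slope from -0.45 to -0.23. With the control as 0% the *Igf1* slope was 0.25. The cause of these shifts was not tested. No CR level has a second array, which limits the precision of every value.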
